A study of Mus musculus with 12 samples.

Results

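Lysyl oxidases and the genes of the elastic fibre were followed in C2C12 cells, a clonal line of mouse myoblasts that can form muscle fibres in culture, grown for 24 h in 3 media. The high glucose group had 25 mM glucose, the low glucose group 5 mM glucose, and the galactose group 10 mM galactose as the named sugar. Every group had the same cells and the same base medium, DMEM with 1 mM sodium pyruvate, 10% serum and 1% antibiotic, and none carried a deletion or other agent named in the labels. Each group had 4 libraries of polyA RNA, and the study 12. The design text describes other cells, single muscle stem cells, and another culture time. The cell type and time given here are those of the sample labels. The 10 genes were given as a list of symbols (Lox, Loxl1, Loxl2, Loxl3, Loxl4, Eln, Fbn1, Fbln2, Fbln5 and Emilin1). Each was read from the locus that holds its symbol in the authors' deposited table, 10 of 26271 loci in all.

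Elastic fibres form when tropoelastin, the product of Eln, is laid onto a scaffold of fibrillin microfibrils and is crosslinked by copper-dependent lysyl oxidases. The same enzymes crosslink collagen, and their products stiffen the matrix around cells. Fibulins bridge tropoelastin, fibrillin and the lysyl oxidases, and EMILIN-1 is a glycoprotein at the boundary of elastin and microfibrils. Skeletal muscle keeps most of this matrix in its connective tissue sheaths, and myoblasts in culture also secrete parts of it.

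The table holds 1 pooled FPKM value per group, a level scaled to transcript length and to the number of fragments sequenced. Each value thus comes without an SD or n, and sequencing depth is unknown. Whether a group's libraries were separate cultures is not stated in the labels. A gene was called changed where the authors' test was run and their q was below 0.05. The lowest q in the table, 0.000239, was shared by 9204 of 44006 tests, and genes at that value cannot be ranked by it. In bulk RNA of this kind, fewer cells that express a gene and less of its RNA per cell cannot be told apart.

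Of the 10 genes, both fibulins and 3 of the 5 lysyl oxidases were called in opposite directions. Loxl3, counted among the 5, shares its locus with Aup1 and Dqx1. Calls were common in this table. From high glucose to galactose, 26.5% of the 14812 tested loci rose and 24.8% fell by the same rule. The matching shares were 18.3% and 18.2% from high to low glucose, and 17.4% and 16% from low glucose to galactose. Whether the 10 genes were called more often than other loci was not tested. Fbln2 and Fbln5 were highest in galactose, Lox, Loxl1, Loxl4 and Emilin1 were highest in high glucose, and Fbn1 was highest in low glucose. Loxl2 and the locus that holds Loxl3 were not called in any of the 3 comparisons. Eln was listed at 0 in all groups and was not tested.

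RefSeq promoter sequences of the build GRCm38.p6 were at hand for 5 of the 10 genes, in 6 entries of 300 bases (250 before the gene start and 50 from it on). They are shown for both fibulins, which rose together, and for Emilin1 and Loxl4, which fell. Fbln5 has a pair of annotated starts. Each is printed 5′ to 3′ on the gene's own strand. Capitals mark matches on either strand to the E-box CANNTG, bound by MyoD-type factors, to the GC box GGGCGG, bound by SP1-type factors, and to TGATGNAA, the core of amino acid response elements.
Fbln2: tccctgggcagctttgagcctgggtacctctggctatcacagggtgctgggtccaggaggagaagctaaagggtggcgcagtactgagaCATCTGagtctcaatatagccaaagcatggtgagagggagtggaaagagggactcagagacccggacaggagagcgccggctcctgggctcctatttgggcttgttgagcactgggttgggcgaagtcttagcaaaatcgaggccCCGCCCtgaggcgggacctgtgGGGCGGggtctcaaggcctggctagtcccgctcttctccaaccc
Fbln5, outer start: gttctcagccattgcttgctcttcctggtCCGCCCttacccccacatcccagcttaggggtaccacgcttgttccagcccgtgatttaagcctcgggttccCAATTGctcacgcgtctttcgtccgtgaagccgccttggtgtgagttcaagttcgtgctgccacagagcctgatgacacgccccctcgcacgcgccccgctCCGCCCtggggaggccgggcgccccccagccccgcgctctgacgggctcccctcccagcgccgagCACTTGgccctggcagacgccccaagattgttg
Fbln5, inner start: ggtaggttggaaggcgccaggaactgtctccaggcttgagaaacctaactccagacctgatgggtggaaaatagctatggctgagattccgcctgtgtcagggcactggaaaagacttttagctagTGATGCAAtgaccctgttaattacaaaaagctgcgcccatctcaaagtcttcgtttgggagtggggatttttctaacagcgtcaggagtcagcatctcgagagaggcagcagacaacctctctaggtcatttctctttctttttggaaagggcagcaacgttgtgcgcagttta
Emilin1: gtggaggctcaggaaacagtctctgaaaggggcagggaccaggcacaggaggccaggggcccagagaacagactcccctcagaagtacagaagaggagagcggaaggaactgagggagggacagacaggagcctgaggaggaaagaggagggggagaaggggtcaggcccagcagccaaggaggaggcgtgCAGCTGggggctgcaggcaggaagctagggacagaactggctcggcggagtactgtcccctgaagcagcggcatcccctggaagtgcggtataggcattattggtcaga
Loxl4: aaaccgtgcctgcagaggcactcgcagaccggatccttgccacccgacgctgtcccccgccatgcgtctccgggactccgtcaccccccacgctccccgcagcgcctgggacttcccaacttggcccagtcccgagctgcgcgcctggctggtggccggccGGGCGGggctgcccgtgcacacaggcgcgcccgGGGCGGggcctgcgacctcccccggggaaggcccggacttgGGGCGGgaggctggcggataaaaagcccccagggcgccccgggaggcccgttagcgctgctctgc

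The Fbln2 stretch is chr6:91212514-91212813 on the plus strand, and that of Emilin1 is chr5:30913536-30913835 on the plus strand. Those of Fbln5 are chr12:101819070-101819369 for the outer start and chr12:101818435-101818734 for the inner start, both on the minus strand. The stretch of Loxl4 is chr19:42612757-42613056 on the minus strand. Loxl4 had 3 GC boxes, beginning 89, 56 and 15 bases before the gene start, and no E-box match. Emilin1 had 1 E-box, CAGCTG, 59 bases before its start, and no GC box match. Fbln2 had 1 E-box, CATCTG, 161 bases before its start and a pair of GC boxes, 16 bases before and 6 bases after it. The outer start of Fbln5 had the E-boxes CAATTG and CACTTG, 149 bases before and 17 bases after it, and GC boxes 221 and 48 bases before it. Its inner start had the single match to the amino acid response core, TGATGCAA, 124 bases before it. The remaining entry, not printed, is that of Fbn1, which was not called from high glucose to galactose. The Fbn1 entry had the E-box CAGCTG, as Emilin1 had, 38 bases after the start and a GC box 185 bases before it. E-boxes stood in 72.3% of the 32851 promoters of the table, GC boxes in 35.7% and the amino acid response core in 3.97%. The MCAT site CATTCC, the TATA box TATAAA and the AP-1 site TGANTCA were searched as well and had no match in the 6 entries. They stood in 14.7%, 13.6% and 7.81% of all promoters. A match is a stretch of letters and not a measured binding site.

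**Figure D1:**
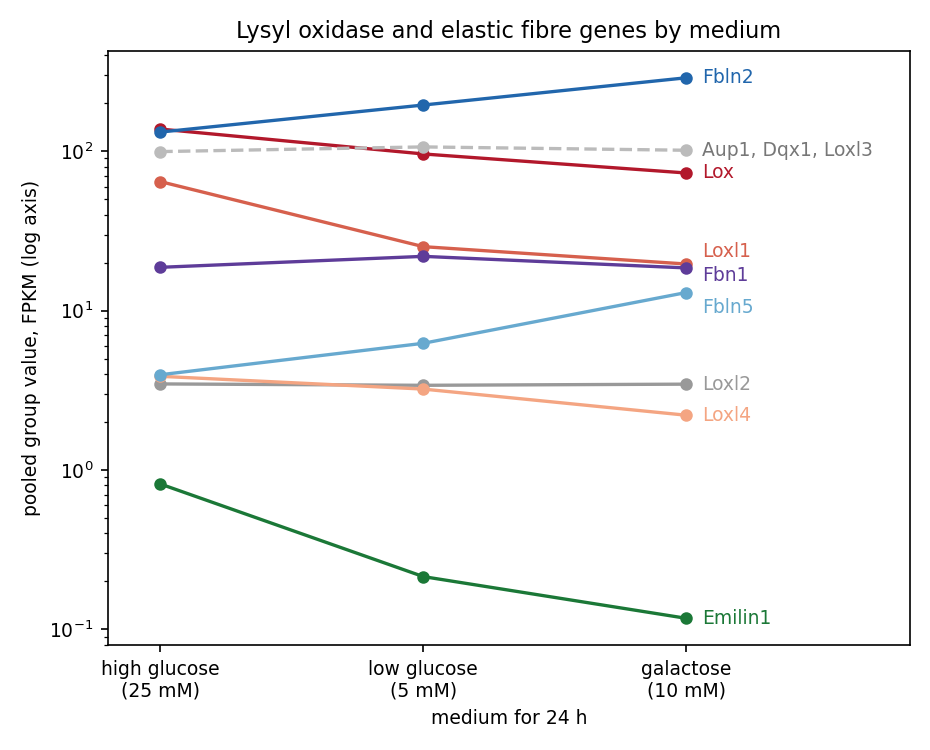
Pooled FPKM value of each gene (y axis, log scale) in high glucose, low glucose and galactose medium (x axis), from the authors' deposited table, with 1 point per group and no error since the values are pooled. Fbln2 climbs from 132 to 289 FPKM and Lox drops from 138 to 73.0 FPKM. The dashed line is the locus that holds Aup1, Dqx1 and Loxl3 together, and Eln, listed at 0, is not drawn.

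The first question was how these genes differed when the supply of the same sugar was lower. Of the 10 genes 9 were tested, of which 3 rose (Fbn1, Fbln2 and Fbln5) and 4 fell (Lox, Loxl1, Loxl4 and Emilin1). In low glucose, 18.3% of all 14699 tested loci were called higher and 18.2% were called lower. The median log2 change of the 9 was -0.0288, beside 0.0069 over all tested loci with a finite change.

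The next question was how they differed when galactose stood in for high glucose. Of the 9 genes tested, 2 rose (Fbln2 and Fbln5) and 4 fell, again Lox, Loxl1, Loxl4 and Emilin1. Among all 14812 tested loci, 26.5% were called higher and 24.8% lower in galactose. The median of the 9 was -0.0124 on the log2 scale, beside 0.0058 over all tested loci.

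The last question was how galactose medium differed from low glucose medium. Of the 8 genes tested, 2 rose (Fbln2 and Fbln5) and 4 fell (Lox, Loxl1, Loxl4 and Fbn1). Among all 14495 tested loci, 17.4% were called higher and 16% lower in galactose. The median of the 8 was -0.16 on the log2 scale, beside 0.0101 over all tested loci. The 3 comparisons share groups, so a gene that stands apart in 1 group appears in 2 of them.

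**Figure D2:**
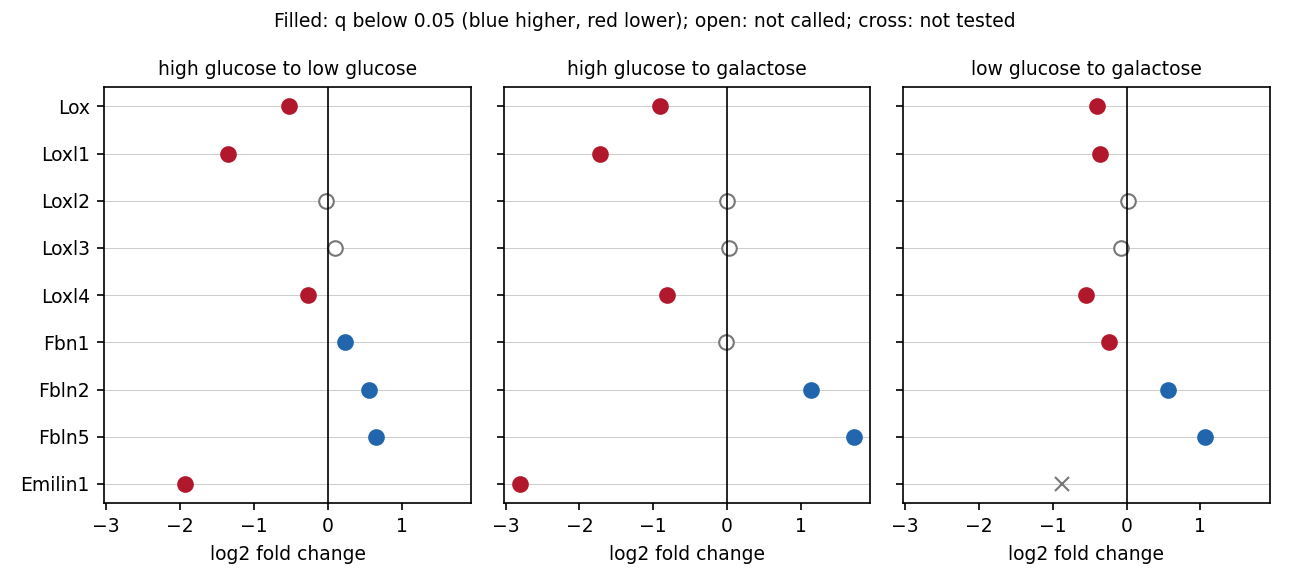
Log2 fold change (x axis) of each gene (y axis) in the 3 comparisons, from the authors' deposited table. Filled points were called at q below 0.05, blue for higher and red for lower in the second group, open points were tested and not called, and the cross marks Emilin1 from low glucose to galactose, which was not tested. Fbln2 and Fbln5 lie right of 0 in all 3 panels and Lox, Loxl1 and Loxl4 left of it.

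Lox encodes lysyl oxidase, the founding enzyme of the family, which oxidises lysines of tropoelastin and collagen so that they crosslink. Its locus lies on chromosome 18 from 52515868 to 52529990 (mm10). In the authors' deposited table, Lox stood at 138 FPKM in high glucose, 96.1 FPKM in low glucose and 73.0 FPKM in galactose. It was thus the highest of the 10 genes in high glucose, and the third highest locus of the set in both other media. It fell 1.43-fold from high to low glucose and 1.89-fold to galactose, with log2 changes of -0.52 and -0.92 (authors' q = 0.000239 for each, the authors' deposited table). From low glucose to galactose Lox fell by a further 0.40 on the log2 scale (q = 0.000239 in the authors' deposited table). Of its whole log2 change from high glucose to galactose, 56.7% was reached in low glucose.

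Loxl1 encodes the lysyl oxidase most closely tied to elastin, which is needed for the upkeep of elastic fibres in adult tissue. Its locus lies on chromosome 9 from 58287723 to 58313212 (mm10). Loxl1 stood at 64.4 FPKM in high glucose, 25.2 FPKM in low glucose and 19.6 FPKM in galactose in the authors' deposited table. Most of the drop lay between the glucose media: 78.9% of the log2 change to galactose was reached in low glucose. Loxl1 fell 2.56-fold to low glucose and 3.29-fold to galactose (log2 changes -1.36 and -1.72, q = 0.000239 for each in the authors' deposited table). Of the tested loci, 225 had a lower log2 change than Loxl1 in low glucose and 307 in galactose. From low glucose to galactose it fell by 0.36 on the log2 scale (q = 0.000239 in the authors' deposited table). Lox was 2.14 times as high as Loxl1 in high glucose, 3.82 times in low glucose and 3.72 times in galactose.

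Loxl4 encodes a lysyl oxidase with scavenger receptor domains, as Loxl2 and Loxl3 do. In the authors' deposited table, Loxl4 had 3.87 FPKM in high glucose, 3.22 FPKM in low glucose and 2.21 FPKM in galactose. The fall was small to low glucose, by 0.27 on the log2 scale (q = 0.0255 in the authors' deposited table), and larger to galactose, by 0.81 (q = 0.000239). The first of these calls was the weakest of the set and was lost at q below 0.01. Between low glucose and galactose it fell by 0.54 on the log2 scale (q = 0.000239 in the authors' deposited table). Unlike Loxl1, Loxl4 had reached 32.8% of its log2 change in low glucose. The deposited interval, chromosome 19 from 42518782 to 42612850 (mm10), also spans R3hcc1l, a gene listed on its own. R3hcc1l stood at 3.71, 3.76 and 3.20 FPKM in the same order of media in the authors' deposited table and was not called (q = 0.924 to low glucose, 0.149 to galactose and 0.118 between them).

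Loxl2, whose enzyme crosslinks collagen IV of basement membranes, did not pass the test in any comparison. It was listed at 3.47 FPKM in high glucose, 3.40 FPKM in low glucose and 3.45 FPKM in galactose in the authors' deposited table. Its log2 changes were -0.0288 to low glucose, -0.0049 to galactose and 0.0239 between these (q = 0.949, 0.992 and 0.965 in the authors' deposited table). The deposited interval, chromosome 14 from 69241843 to 69695950 (mm10), is longer than the gene and is shared with Slc25a37, a mitochondrial iron carrier gene listed separately, whose loci were called higher in galactose. A miss of the threshold does not show that the levels were equal, and no interval can be given for pooled values.

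Loxl3 could not be read on its own. Its symbol stands in 1 locus with Aup1, a gene of protein degradation at the endoplasmic reticulum, and Dqx1, on chromosome 6 from 83034174 to 83067219 (mm10). That locus was listed at 99.4, 106 and 101 FPKM in high glucose, low glucose and galactose in the authors' deposited table and was not called (q = 0.443, 0.857 and 0.613). How much of the value is Loxl3 cannot be told from the table. Htra2, a protease gene on the opposite strand, overlaps Loxl3 in GENCODE M21, and the labels do not say whether reads were counted by strand.

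The 4 lysyl oxidases with loci of their own summed to 209 FPKM in high glucose, 128 FPKM in low glucose and 98.2 FPKM in galactose. Lox made up 65.7%, 75.1% and 74.3% of these sums and Loxl1 30.8%, 19.7% and 19.9%. The share of Loxl1 was therefore lower in low glucose and galactose than in high glucose. No test was made of these shares, since each rests on 1 pooled value.

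Eln encodes tropoelastin itself. It was listed at 0 FPKM in all 3 groups and had no test in the authors' deposited table, at chromosome 5 from 134702596 to 134747254 (mm10). A listed 0 is not proof of missing RNA here. Actb and Vim, which such cells use at high levels, were also listed at 0, in their case with a mark for too many reads, which Eln did not carry. In all, 5936 of the 26271 loci were at 0 in every group, and 5 of these carried the mark for too many reads.

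Fbn1 encodes fibrillin-1, the main protein of microfibrils, and was the single gene of the set called higher in low glucose than in both other media. Its values in the authors' deposited table were 18.7 FPKM in high glucose, 21.9 FPKM in low glucose and 18.5 FPKM in galactose. It rose 1.17-fold to low glucose (log2 change 0.23, q = 0.00215 in the authors' deposited table) and fell 1.18-fold from there to galactose (log2 change -0.24, q = 0.000659). From high glucose to galactose its log2 change was -0.0124, which was not called (q = 0.909 in the authors' deposited table). The locus lies on chromosome 2 from 125300584 to 125506948 (mm10).

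Fbln2 encodes fibulin-2, a large fibulin that binds fibrillin and basement membrane proteins. It stood at 132 FPKM in high glucose, 195 FPKM in low glucose and 289 FPKM in galactose in the authors' deposited table. The steps were nearly even, with 49.8% of the log2 change to galactose reached in low glucose. Fbln2 rose 1.48-fold to low glucose and 2.19-fold to galactose (log2 changes 0.56 and 1.13), and 1.48-fold between low glucose and galactose (log2 change 0.57), with q = 0.000239 each in the authors' deposited table. Among all loci, Fbln2 moved from rank 744 in high glucose to rank 518 in low glucose and rank 316 in galactose. The locus lies on chromosome 6 from 91212764 to 91272540 (mm10).

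Fbln5 encodes fibulin-5, which binds tropoelastin, Loxl1 protein and cell integrins and is needed for elastic fibre assembly. In the authors' deposited table, Fbln5 had 3.96 FPKM in high glucose, 6.23 FPKM in low glucose and 13.0 FPKM in galactose. In contrast to Loxl1, its larger step came with galactose: 38.2% of the log2 change had been reached in low glucose. Fbln5 rose 1.58-fold to low glucose (log2 change 0.66), 3.28-fold to galactose (log2 change 1.71) and 2.08-fold between these (log2 change 1.06), all at q = 0.000239 in the authors' deposited table. The number of tested loci with a higher log2 change than Fbln5 was 478 in low glucose and 200 in galactose, both against high glucose. The locus lies on chromosome 12 from 101746565 to 101819295 (mm10).

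Together the fibulin pair summed to 136 FPKM in high glucose, 201 FPKM in low glucose and 302 FPKM in galactose. Most of that was Fbln2, which was 33.3 times as high as Fbln5 in high glucose and 22.2 times in galactose. Lox and Fbln2 were near each other in high glucose, with a ratio of Fbln2 to Lox of 0.958. The ratio was 2.03 in low glucose and 3.96 in galactose. Whether neighbours in this order of levels differ beyond the spread of libraries cannot be said from pooled values.

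Emilin1 had the lowest level, Eln aside, and the largest ratio between deposited values of the tested genes. It was listed at 0.816 FPKM in high glucose, 0.214 FPKM in low glucose and 0.117 FPKM in galactose in the authors' deposited table. It fell 3.81-fold to low glucose and 6.96-fold to galactose (log2 changes -1.93 and -2.80, q = 0.000239 each in the authors' deposited table). From low glucose to galactose the log2 change was -0.87 and the authors' tool ran no test. The tested comparisons are those that hold high glucose, where the gene is highest. With 1 FPKM added to each value the log2 changes of Emilin1 were -0.58 and -0.70, smaller in size than those of Loxl1 (-1.32 and -1.67). In galactose the change of Emilin1 was also smaller in size than those of Fbln5 (1.50), Fbln2 (1.13) and Lox (-0.91). The calls of Emilin1 drop out where at least 1 FPKM is asked for in the higher group. The locus lies on chromosome 5 from 30913786 to 30921273 (mm10).

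**Figure D3:**
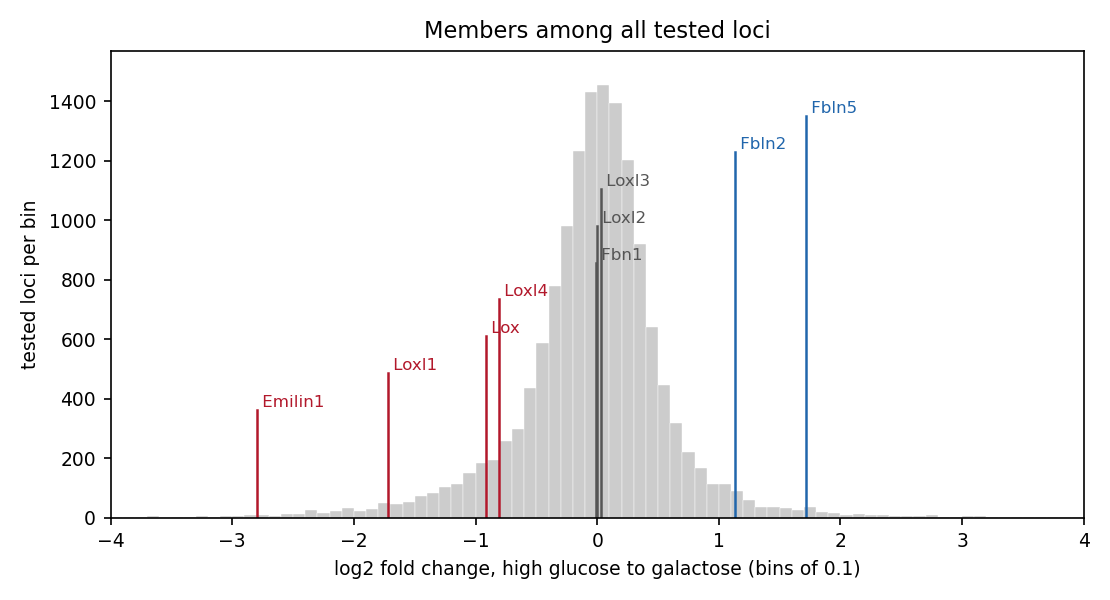
Number of tested loci (y axis) per bin of 0.1 of log2 fold change from high glucose to galactose (x axis), with each tested gene of the set as a vertical line whose height has no meaning. Red lines were called lower, blue lines higher and grey lines were not called. Emilin1 lies at -2.80, Fbln5 at 1.71, and Fbn1, Loxl2 and the Loxl3 locus lie near 0 among most other loci.

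Genes with the pattern most like a member were sought among 7597 single-symbol loci tested in all 3 comparisons and of at least 5 FPKM on average, by the distance between their 3 log2 group values after centring. For Lox the nearest were Plekhg2, Runx1 and S100a16, at distances of 0.0109, 0.0165 and 0.0267. Runx1, which encodes a transcription factor, went from 27.6 to 19.3 and 14.8 FPKM in the authors' deposited table. For Loxl1 they were Nedd9, Olfm1 and Trim55, at 0.0609, 0.0624 and 0.0700. The nearest locus of Olfm1, a secreted glycoprotein gene, went from 62.9 to 26.0 and 19.2 FPKM in the authors' deposited table. For Fbn1 they were Klf6, Usp34 and Rhobtb3, at 0.0036, 0.0058 and 0.0122. Within a distance of 0.1 there were 43 loci for Lox, 5 for Loxl1 and 310 for Fbn1. The likeness rests on 3 pooled values, and a gene listed at 0, as Eln is, has no such pattern.

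The wider pathway list had 78 further genes in 7 roles, all found, of which 61 were tested from high to low glucose and 60 from high glucose to galactose. In low glucose 10 rose and 20 fell, and in galactose 14 rose and 30 fell, both against high glucose. Between low glucose and galactose 10 of 59 rose and 24 fell. The shares of all tested loci that were called higher and lower were 18.3% and 18.2% in low glucose, 26.5% and 24.8% in galactose, and 17.4% and 16% between low glucose and galactose. The counts by role are to be read against these shares, and with so few genes a role's count can lie near them. The median log2 changes of the tested genes were -0.0628, -0.17 and -0.0909 in that order.

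Among microfibril genes, 4 of 9 tested fell in low glucose and none rose, and 4 of 9 fell and 1 rose in galactose. Of all tested loci, 18.2% were called lower and 18.3% higher in low glucose, and 24.8% and 26.5% in galactose. The latent TGF-beta binding proteins, which sit on fibrillin, differed from each other. Ltbp3 fell from 83.9 FPKM in high glucose to 56.3 FPKM in low glucose and stood at 56.3 FPKM in galactose in the authors' deposited table. Ltbp2 stood at 59.7 and 60.0 FPKM in high and low glucose and fell to 42.6 FPKM in galactose in the authors' deposited table. Ltbp1 fell by 0.37 on the log2 scale from high glucose to galactose, whereas Ltbp4, needed for elastic fibre assembly, rose by 0.29 (q = 0.000239 each in the authors' deposited table). In low glucose, however, Ltbp4 was called lower, at 20.9 FPKM against 24.0 FPKM in high glucose (q = 0.00737 in the authors' deposited table). Of the other fibulin and EMILIN genes, 4 of 4 tested fell in galactose and 2 of 4 in low glucose. Fbln7 went from 1.48 to 0.599 and 0.424 FPKM, and Efemp2, the fibulin-4 gene that carries Lox protein to elastin, from 107 to 102 and 92.6 FPKM in the authors' deposited table. Fbln1 and Emilin2 fell by 0.28 and 0.31 on the log2 scale in galactose (q = 0.000239 each in the authors' deposited table). The rise of Fbln2 and Fbln5 was thus not shared by the other fibulin genes tested.

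Genes that mature lysyl oxidases were called in both directions. The shares of all tested loci called higher and lower were 26.5% and 24.8% in galactose, and 18.3% and 18.2% in low glucose. From high glucose to galactose 4 of 8 tested fell (Bmp1, Pcolce, Postn and Atp7a) and 1 rose, the copper importer gene Slc31a1, by 0.17 on the log2 scale (q = 0.0373 in the authors' deposited table). To low glucose 2 of 9 fell (Bmp1 and Pcolce) and 2 rose, Tll1, which encodes a protease of the Bmp1 family, and Pcolce2, by 1.26 and 0.35 on the log2 scale (q = 0.000239 each in the authors' deposited table). Tll1 was low, at 0.115 FPKM in high glucose, 0.276 FPKM in low glucose and 0.0399 FPKM in galactose, and was tested in the comparisons that hold low glucose, where it is highest. From low glucose to galactose its log2 change was -2.79 (q = 0.000239 in the authors' deposited table). Bmp1, the protease that releases active lysyl oxidase, went from 69.5 to 54.8 and 54.3 FPKM in the authors' deposited table. The locus of Pcolce, an enhancer of that protease, also holds Fbxo24 and went from 441 to 327 and 251 FPKM in the authors' deposited table. Atp7a, the copper pump that loads lysyl oxidases, fell by 0.35 on the log2 scale and Postn, a matrix scaffold gene, by 0.53 in galactose (q = 0.000239 each in the authors' deposited table). Of the genes that modify collagen lysines and prolines, 6 of 11 fell and 3 rose in galactose. Plod1 and Plod2, lysyl hydroxylase genes, fell by 0.44 and 0.43 on the log2 scale and P4hb, a prolyl hydroxylase subunit, by 0.38, whereas Serpinh1, the collagen chaperone, rose by 0.38 (q = 0.000239 each in the authors' deposited table).

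Receptor and protease genes were called in both directions, and their counts are too small to set apart from the shares of all tested loci. Those shares were 26.5% higher and 24.8% lower in galactose, against high glucose. Of 9 receptor genes tested 3 rose and 3 fell in galactose. Itgb3 fell from 14.7 to 6.91 FPKM and Itgb8 from 0.642 to 0.0943 FPKM, and Itgb1 rose from 190 to 236 FPKM, between high glucose and galactose in the authors' deposited table. Itgb8 was tested in the comparisons that hold high glucose, where it is highest. Neu1, a sialidase of the elastin receptor complex, rose by 0.28 on the log2 scale (q = 0.0101 in the authors' deposited table). Of 7 protease and inhibitor genes tested 3 rose and 3 fell. Mmp2 and Mmp14, a gelatinase and its activator, fell by 0.94 and 0.68 on the log2 scale, and Ctsl, a lysosomal protease gene, and Timp3, an inhibitor held in the matrix, rose by 0.81 and 0.69 (q = 0.000239 each in the authors' deposited table).

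TGF-beta is a known inducer of Lox and Eln in many cells. Of 12 tested genes of that pathway, 6 fell and 3 rose in galactose, and 4 fell and 3 rose in low glucose. Of all tested loci, 24.8% were called lower and 26.5% higher in galactose, and 18.2% and 18.3% in low glucose. Tgfb3, a ligand, went from 26.4 to 17.0 and 11.4 FPKM in the authors' deposited table. Its receptor gene Tgfbr2 went from 28.0 to 18.3 and 14.7 FPKM and the effector gene Smad3 from 10.4 to 5.92 and 5.47 FPKM in the authors' deposited table. Ctgf, a common target gene, went the other way, from 82.2 to 115 and 176 FPKM in the authors' deposited table. Lox, Loxl1, Tgfb3, Tgfbr2 and Smad3 were thus highest in high glucose and Fbln2, Fbln5 and Ctgf highest in galactose.

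**Figure D4:**
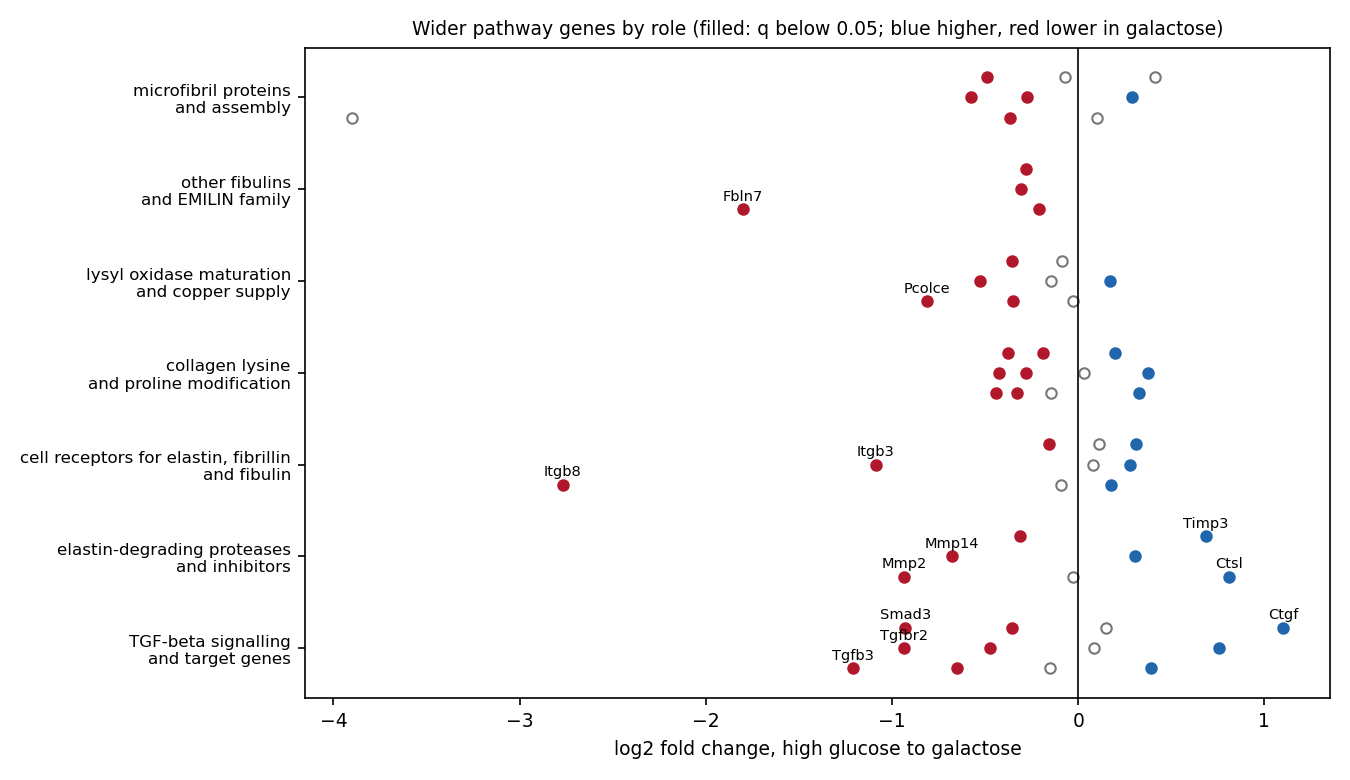
Log2 fold change from high glucose to galactose (x axis) of the 60 tested genes of the wider list, in rows by role (y axis, with points spread up and down for legibility). Filled points were called at q below 0.05, blue higher and red lower in galactose, and open points were not called. The 4 tested genes of the other fibulin and EMILIN row lie left of 0, with Fbln7 at -1.80. The open point far left is Mfap2, at -3.90 and not called. Mfap2 was below 1 FPKM in all 3 groups and was called lower from high to low glucose (log2 change -2.12, authors' q = 0.000239).

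The labelled cell type was checked by its markers. Myod1, Myf5, Pax7, Cdh15 and Des, defining genes of myoblasts, were all listed above 1 FPKM, with summed values of 745, 487 and 394 FPKM in high glucose, low glucose and galactose. As Lox did, 4 of 5 fell in low glucose and 5 of 5 in galactose, by the authors' q in the authors' deposited table, where 18.2% and 24.8% of all tested loci were called lower. Of 5 fibroblast markers 2 reached 1 FPKM, Thy1 and Lum were listed at 0, and the sums were 54.7, 34.1 and 20.3 FPKM, mostly Pdgfrb. Of the 3 fibroblast markers tested, 3 fell in low glucose and 2 in galactose. Of 5 smooth muscle markers 4 reached 1 FPKM, with sums of 1667, 1406 and 1302 FPKM, mostly Acta2, while Myh11 stayed between 0.0055 and 0.0147 FPKM. Of the 4 smooth muscle markers tested, 2 fell in low glucose and 4 in galactose. The 5 endothelial markers reached at most 0.157 FPKM. Of 6 osteoblast and chondrocyte markers 3 reached 1 FPKM (sums 54.9, 50.7 and 44.6 FPKM), and of 4 adipocyte markers 1 did (sums 12.3, 18.4 and 17.3 FPKM). Of 4 macrophage markers 1 did, Cd68, in a locus shared with Eif4a1 (sums 72.8, 96.0 and 98.6 FPKM), and Adgre1 was listed at 0. Calls in these last sets went both ways. Of 5 osteoblast and chondrocyte markers tested in low glucose, 2 rose (Sp7 and Col2a1, both below 1 FPKM) and 1 fell. In galactose 0 of 4 tested rose and 2 fell. Pparg, 1 of 2 adipocyte markers tested, and the Cd68 locus rose in low glucose and in galactose. Of all tested loci, 18.3% were called higher in low glucose and 26.5% in galactose. The part of these markers in the changes of the lysyl oxidase and fibulin genes was not tested.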

How the data were processed

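PolyA RNA of 12 libraries was grouped by the sample labels, 4 per medium. The submitters' processing notes name build mm10 and the tools TopHat2 (2.0.10), Cufflinks (2.2.0) and Cuffdiff, whose version, settings and normalization are not given in the sources used here. The authors' deposited values are FPKM, 1 pooled value per group. The deposited log2 fold change is the ratio of these values without a pseudocount, except that 67 comparisons of a locus differ from it by 0.01 or more. None of these is of a member, but those of Ltbp1 against high glucose are among them, and its deposited change is the value given. The deposited q-value was recomputed from the deposited p-value by Benjamini-Hochberg adjustment over all 44006 tests and differed by at most 5.26e-07. No test across libraries could be run.

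Folds, sums, ranks, pattern distances and motif matches were computed here with Python 3.11.15, pandas 2.3.3, numpy 2.4.6 and scipy 1.17.1, and figures with matplotlib 3.10.9. The adjustment and the pattern search were tested on simulated data. Deposited starts count from 0 and were raised by 1. Symbols were matched to the locus with the highest summed value: 10 of 10 members, 78 of 78 wider genes (2 by an older symbol) and 34 of 34 markers (1 by an older symbol). Named genes are the members, up to 4 called genes per role with the largest change to galactose, and the 3 nearest patterns of Lox, Loxl1 and Fbn1 (Eln, listed at 0, has none). Markers, and Slc25a37, R3hcc1l, Htra2, Actb, Vim, Mfap2, Tll1, Pcolce2 and Slc31a1, were named beside the values they touch, some after these were seen. The members and lists were chosen with earlier results of these data known. Alternatives were other thresholds, filters, adjustment and scaling.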

Additional observations from a re-analysis of the deposited data

How the results depend on the processing

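No paired analysis was possible because the deposited table has 1 pooled value per group, and for the same reason no library could be left out in turn. The counts of called members and wider genes stayed within 1.5 times of those reported at q below 0.01, with at least 1 FPKM in the higher group, with adjustment within each comparison, and without loci of several symbols. With a log2 change of at least 1 asked for as well, members called higher numbered 0 in low glucose, 2 in galactose and 1 between low glucose and galactose (Fbln5), and members called lower numbered 2 (Loxl1 and Emilin1), 2 and 0 in that order. Wider genes called higher then numbered 1, 1 and 0, and lower 3, 4 and 1. The shares of all tested loci given above are for q below 0.05 alone. No share was counted with the log2 limit, so these counts cannot be called many or few. Of 78 values of single members under a pseudocount of 1 FPKM, centring on all tested loci or summing of a symbol's loci, none of a called member changed sign and 7 moved by 0.1 or more on the log2 scale, all under the pseudocount. These were of Emilin1 (-0.58 and -0.70), Fbln5 (0.55, 1.50 and 0.95) and Loxl4 (-0.60 and -0.40). The spread between libraries and their depth remain unknown.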
